A study of Mus musculus with 4 samples.

Results

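Distal regions occupied by Runx2 at days 9 and 28 of osteoblast differentiation, with no Runx2 peak at day 0, numbered 10117 of the 67703 regions formed from the 3 peak lists of the study, and 43666 of all regions were distal. These late distal regions were chosen by the presence of peaks on the 3 days and by position. Peaks sharing at least 1 bp were merged, a peak was required at days 9 and 28 and none at day 0, and the centre had to lie more than 1 kb and at most 100 kb from the nearest protein-coding transcription start site (TSS) and in no protein-coding exon (GENCODE M1, mm9). They made up 23.2% of distal regions, and this share was fixed by the rule. Of all 14319 regions with this temporal pattern, 70.7% were distal in this sense, 10.6% were centred in exons, 6.66% lay within 1 kb of a TSS outside exons and 12.1% lay beyond 100 kb.

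The study mapped Runx2 by chromatin immunoprecipitation and sequencing (ChIP-Seq) in MC3T3-E1 subclone 4 cells, a clonal preosteoblast line from C57BL/6 mouse calvaria. The 3 groups were proliferating preosteoblasts at day 0, matrix-depositing cells at day 9 and mineralizing cells at day 28, and differentiation was induced with ascorbic acid and beta-glycerophosphate. All cells were of the same strain and line, and the same Runx2 antibody (M70) was used throughout. The one input DNA sample listed came from matrix-depositing cells and was not analysed here. Each day is represented by 1 list called on pooled libraries (25457, 60596 and 40330 peaks at days 0, 9 and 28), so no spread between replicates was available and no test between days was made. The lists hold no read counts, so the number of reads behind a single peak is not known here. The study's supplement gives read totals for each day, the day 0 libraries having the most reads, although their list is the shortest. A region without a day 0 peak may still have carried signal below the threshold of the peak caller, and the part of depth was not tested. Binding in more cells and stronger binding per cell cannot be told apart in such data, and the cell type labels could not be checked, since no expression values were analysed here.

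Runx2 is the transcription factor required for osteoblast commitment. Together with its partner Cbfb it binds the Runx motif TGTGGT through the runt domain, and its sites outside promoters include enhancers that act over long distances. Osteoblasts first proliferate, then deposit a collagen matrix, and finally mineralize that matrix with the help of alkaline phosphatase and acidic matrix proteins.

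A Runx core lay within 100 bp of the day 9 peak centre in 4703 of all 10117 late distal regions (46.5%). Of 48 late distal regions named for their rank, list or landmark gene, 14 held a core so placed, as did 6 of the 22 top regions of landmark genes. The sequences below are those 14, chosen for this closeness, and they show the letters around the core in regions of named genes. They come from the 10 highest-ranking regions, the top region of each landmark gene and that of the gene with most regions in each list, wherever a core lay within 100 bp of the day 9 peak centre, with the TGTGGT letters in capitals. They are given for 61 bp around the core nearest to the centre, 5′ to 3′, on the strand that reads as the core, in mm9.
Runx2, chr17:44798600-44798660, minus strand: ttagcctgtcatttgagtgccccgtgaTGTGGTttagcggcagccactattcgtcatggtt
Mmp13, chr9:7239533-7239593, minus strand: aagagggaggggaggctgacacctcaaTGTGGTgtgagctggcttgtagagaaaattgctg
Gja1, chr10:56165197-56165257, minus strand: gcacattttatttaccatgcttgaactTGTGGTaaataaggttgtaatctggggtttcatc
Tnfrsf19, chr14:61544467-61544527, plus strand: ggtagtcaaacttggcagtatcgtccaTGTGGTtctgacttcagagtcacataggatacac
Phex, chrX:153816786-153816846, minus strand: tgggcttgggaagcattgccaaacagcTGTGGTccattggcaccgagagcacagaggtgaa
Col5a1, chr2:27785077-27785137, plus strand: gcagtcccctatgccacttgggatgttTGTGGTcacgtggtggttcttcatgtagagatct
Smad3, chr9:63513141-63513201, plus strand: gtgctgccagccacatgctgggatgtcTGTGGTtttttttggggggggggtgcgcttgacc
Gli2, chr1:120930760-120930820, plus strand: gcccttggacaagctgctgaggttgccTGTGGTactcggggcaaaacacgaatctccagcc
Sema4d, chr13:51851922-51851982, minus strand: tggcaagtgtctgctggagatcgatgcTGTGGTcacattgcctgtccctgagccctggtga
Gad1, chr2:70420788-70420848, minus strand: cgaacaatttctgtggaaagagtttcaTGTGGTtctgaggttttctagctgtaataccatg
Fzd7, chr1:59507979-59508039, minus strand: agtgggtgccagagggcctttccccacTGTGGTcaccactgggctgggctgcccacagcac
Bcr, chr10:74541363-74541423, plus strand: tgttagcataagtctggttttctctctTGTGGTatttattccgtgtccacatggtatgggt
Spns2, chr11:72295717-72295777, minus strand: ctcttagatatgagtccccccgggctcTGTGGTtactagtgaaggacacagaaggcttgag
Vdr, chr15:97751550-97751610, minus strand: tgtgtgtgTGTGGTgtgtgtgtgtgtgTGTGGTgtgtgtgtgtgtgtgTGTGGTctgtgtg
In the *Runx2* gene itself the core lay 100 bp from the day 9 peak centre. In the intergenic region nearest to *Fzd7*, a Wnt receptor gene, it lay 11 bp from that centre. The *Vdr* sequence was of another kind, with 3 cores in a run of alternating T and G, and the whole *Vdr* region of 1254 bp held 44 cores. In other landmark regions the 61 bp around the day 9 centre held no Runx core, and these examples show another of the motifs searched in capitals. They are a GC box near *Sp7*, the E-box CAGCTG near *Tnfsf11* and TGAATCA near *Ibsp*. TGAATCA matches the pattern searched for AP-1 (TGANTCA), with A as the middle base. The *Ibsp* stretch also holds the motifs CAGGAA and TAATTA in lower case.
Sp7, chr15:102201339-102201399, plus strand: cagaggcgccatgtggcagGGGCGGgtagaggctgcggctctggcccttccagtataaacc
Tnfsf11, chr14:78730463-78730523, plus strand: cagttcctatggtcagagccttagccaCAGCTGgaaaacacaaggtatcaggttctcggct
Ibsp, chr5:104715817-104715877, plus strand: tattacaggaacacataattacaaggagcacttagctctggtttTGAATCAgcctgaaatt

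The Runx core was the motif found most often at the centres. It was present within 50 bp of the day 9 peak centre in 3111 of 10117 late distal regions (30.8%, exact 95% interval 29.9 to 31.7), on either strand. In windows of equal length 450 to 550 bp away on both sides, 8.09% held it, and the difference was 22.7 percentage points (Newcombe 95% interval 21.7 to 23.6). Of 59338 windows taken at every 25 kb of sequence that meets the same distance and exon rule, 7.51% held it. These intervals cover counting error only, because regions of 1 peak list are not replicates, and no p-value is given. Around the day 28 peak centre 30.2% of the same regions held the core. Both centres held it in 2051 regions, the day 9 centre alone in 1060, the day 28 centre alone in 1000 and neither centre in 6006. Over the whole region, 7349 (72.6%) held at least 1 core and 1878 (18.6%) held 3 or more. Matches were most frequent just before the centre, at 5.18 per kb in the nearest 20 bp, against 0.830 per kb 480 to 500 bp before it.

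The longer form TGTGGTTT, which contains the core, was present in 5.04% of centres and 0.608% of flanks, a ratio of 8.29, and in 0.940% of the windows across eligible sequence. The variant TGCGGT was present in 3.90% of centres, 0.895% of flanks and 0.529% of those windows. Both forms were more frequent at late distal regions than at distal regions bound at day 9 only, by 1.42 points (0.919 to 1.94) and 1.64 points (1.21 to 2.09), and the differences from all-stage regions were -0.672 points (-1.33 to -0.0188) and -1.25 points (-1.87 to -0.651).

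Simple GT repeats separated late distal regions from those bound at day 9 only. At least 6 GT in a row stood within 50 bp of the centre in 304 of 10117 late distal regions (3.00%, 2.68 to 3.36), against 2.19% in their flanks. The share was 14.9% (14.4 to 15.5) of the 16937 distal regions bound at day 9 only and 1.52% (1.27 to 1.81) of the 8297 distal regions bound at all 3 days. The difference between the late regions and those of day 9 only was -11.9 points (-12.6 to -11.3). The TGTGGT letters also occur within such repeats, as the *Vdr* sequence shows, so core shares were compared with and without cores in sequence rich in G and T. With every core counted, 33.3% of day 9 only centres and 25.6% of all-stage centres held one, so the late regions differed by -2.50 points from the former (-3.64 to -1.35) and stood 5.19 points above the latter (3.88 to 6.48). When cores with 20 or more G or T among the 24 bases beside them were left out, the shares were 28.9% for late regions, 27.7% for day 9 only and 25.3% for all stages, and the late regions stood 1.12 points above those of day 9 only (0.0167 to 2.24). With a limit of 16 G or T the difference was 3.33 points (2.31 to 4.36). The order of these 2 groups therefore changed when cores in GT-rich sequence were left out. These limits count G and T bases, so they can also leave out cores outside simple repeats. The part of the repeats themselves was not tested. Over all day 9 ranks together, the share above all-stage regions remained, at 2.28 points (1.07 to 3.48) with the stricter limit.

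The base after the core also differed between the groups. Outside GT-rich sequence, 35.8% of 3644 cores at late centres were followed by T, the base of the longer Runx site (34.2 to 37.3). This share was 28.3% for cores in the flanks of the same regions, 28.0% at day 9 only centres and 42.8% at all-stage centres. Late regions stood 7.75 points above day 9 only (5.84 to 9.67) and differed from all stages by -7.01 points (-9.51 to -4.51).

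**Figure D1:**
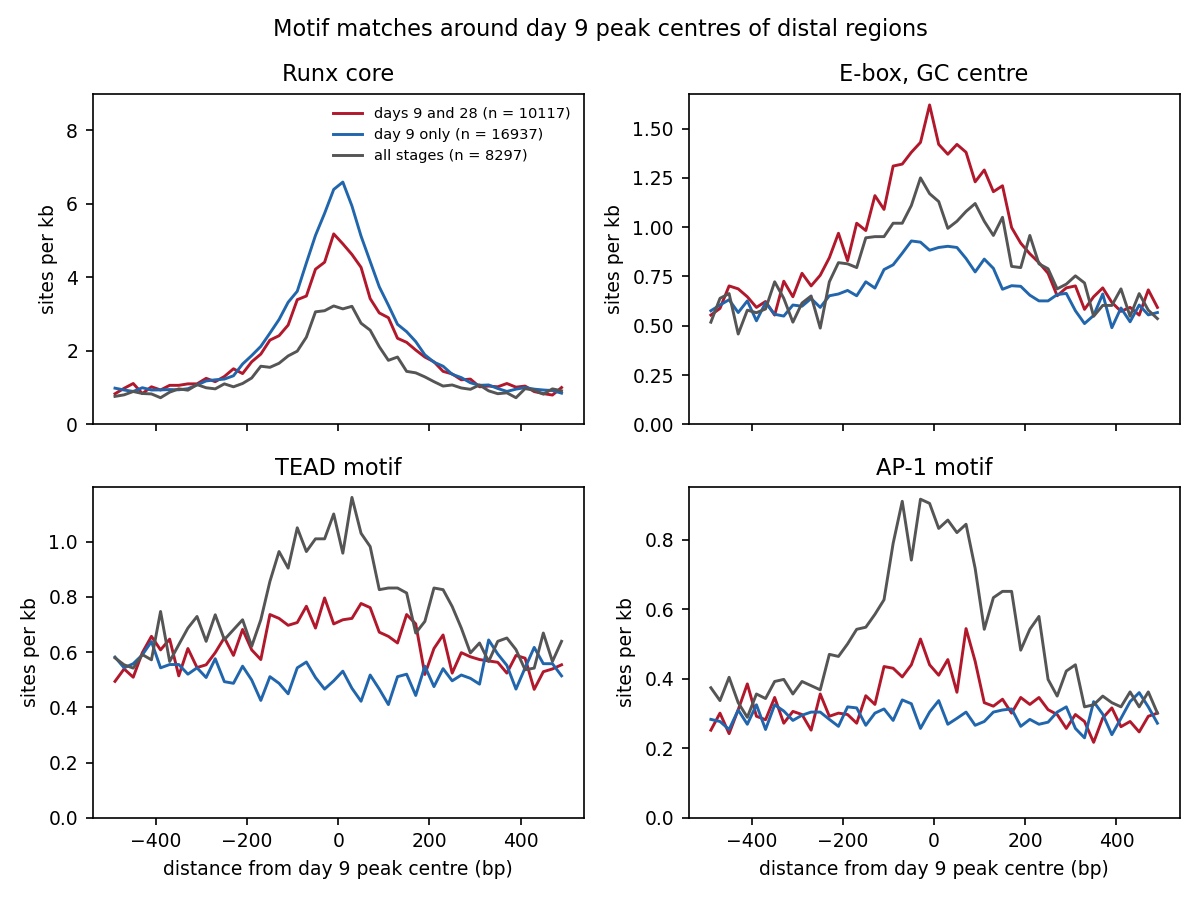
Matches per kb (y axis) of 4 motifs in bins of 20 bp by distance from the day 9 peak centre in bp (x axis), for distal regions bound at days 9 and 28 (red), at day 9 only (blue) and at all stages (grey). The E-box with GC at its centre was densest in the red group, AP-1 and TEAD motifs were densest in the grey group, and every Runx core was counted, those in GT repeats included.

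An E-box distinguished the late distal regions from both other groups. CAGCTG, a site of basic helix-loop-helix factors, was present at 1283 of 10117 late centres (12.7%) and in 5.42% of their flanks, a difference of 7.26 points (6.55 to 7.99). It was present in 3.83% of the windows taken across eligible sequence. At day 9 only centres the share was 7.43%, which is 5.25 points less (4.50 to 6.01), and at all-stage centres it was 9.94%, which is 2.74 points less (1.82 to 3.65). The late regions held it as often with a Runx core at the same centre as without one (12.7% of 3111 and 12.7% of 7006). Its share was 11.3% (10.1 to 12.6) in the 25% of late regions that ranked lowest and 15.5% (14.1 to 17.0) in the 25% that ranked highest, by the lower of their percentiles on both days. Among the 2127 regions with the higher percentile at day 28 it was 15.3% (13.8 to 16.9), and among the 7990 with the higher percentile at day 9 957 held it (interval 11.3% to 12.7%). The related E-box CAGATG, a site of Twist factors, was present at 10.7% of late centres and 8.04% of flanks (7.67% of eligible windows), 2.46 points above day 9 only (1.74 to 3.20) and 1.12 points above all stages (0.245 to 1.99). Median GC content within 100 bp of the centre was 53.2% in late regions, 52.7% in day 9 only regions and 53.2% in all-stage regions. It was lower in the sequence the centres are compared with, at 47.8% in late regions 400 to 600 bp before the centre. In the windows taken across eligible sequence it was 42.6%. The part of GC content in the motif shares, here and below, was not tested.

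Motifs of AP-1 and Tead factors stood between the other groups. AP-1 was sought as TGANTCA, which allows any middle base and is therefore wider than the site of Fos and Jun. This pattern was present at 4.03% of late centres against 2.77% of flanks and 2.94% of eligible windows, at 2.69% of day 9 only centres and at 7.82% of all-stage centres. The late share was 1.35 points above the former (0.900 to 1.81) and differed from the latter by -3.79 points (-4.49 to -3.10). The Tead motif GGAATG, bound by the partners of Yap and Taz, was present at 6.61% of late centres, 4.36% of day 9 only centres, 9.44% of all-stage centres and 5.32% of eligible windows. The GC box GGGCGG of Sp factors followed the same order at 5.19%, 2.81% and 6.83%, against 1.02% of eligible windows. The Nfi motif TTGGCA was present at 8.34% of late centres, 4.95% of flanks and 5.18% of eligible windows, and its difference from all-stage centres was -0.613 points (-1.43 to 0.201). In contrast, the AT-rich GATA motif AGATAA was present at 1.92% of late centres, 4.73% of flanks and 6.59% of eligible windows, and the homeodomain motif TAATTA at 1.41%, 2.43% and 3.31%. The remaining motifs searched were present at the following shares of late centres, flanks and eligible windows. The Ets motifs CCGGAA (1.52%, 1.18% and 0.792%) and CAGGAA (12.6%, 11.0% and 10.5%), the forkhead motif TGTTTAC (1.38%, 1.07% and 1.39%) and TGACGTCA, the cyclic AMP response element (0.217%, 0.0395% and 0.0640%), were more frequent at the centre than in the flanks. The counts for TGACGTCA were small, at 22 late centres and 8 flank windows, and around the day 28 peak centre 11 late regions held it. The motifs of C/EBP (TTGCNNAA, 3.28%, 3.64% and 4.44%), Sox (ACAATG, 3.58%, 4.70% and 6.04%), Mef2 (CTATTTAT, 0.306%, 0.450% and 0.566%), Tcf and Lef (CTTTGA, 5.08%, 6.67% and 8.0%) and the glucocorticoid receptor (AGAACA, 6.97%, 8.66% and 9.47%) were less frequent at the centre, and for C/EBP and Mef2 the interval of the difference included 0 (-0.785 to 0.0815 and -0.280 to 0.00952). All motifs were sought on both strands, and a match describes letters in a window, not a bound factor.

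**Figure D2:**
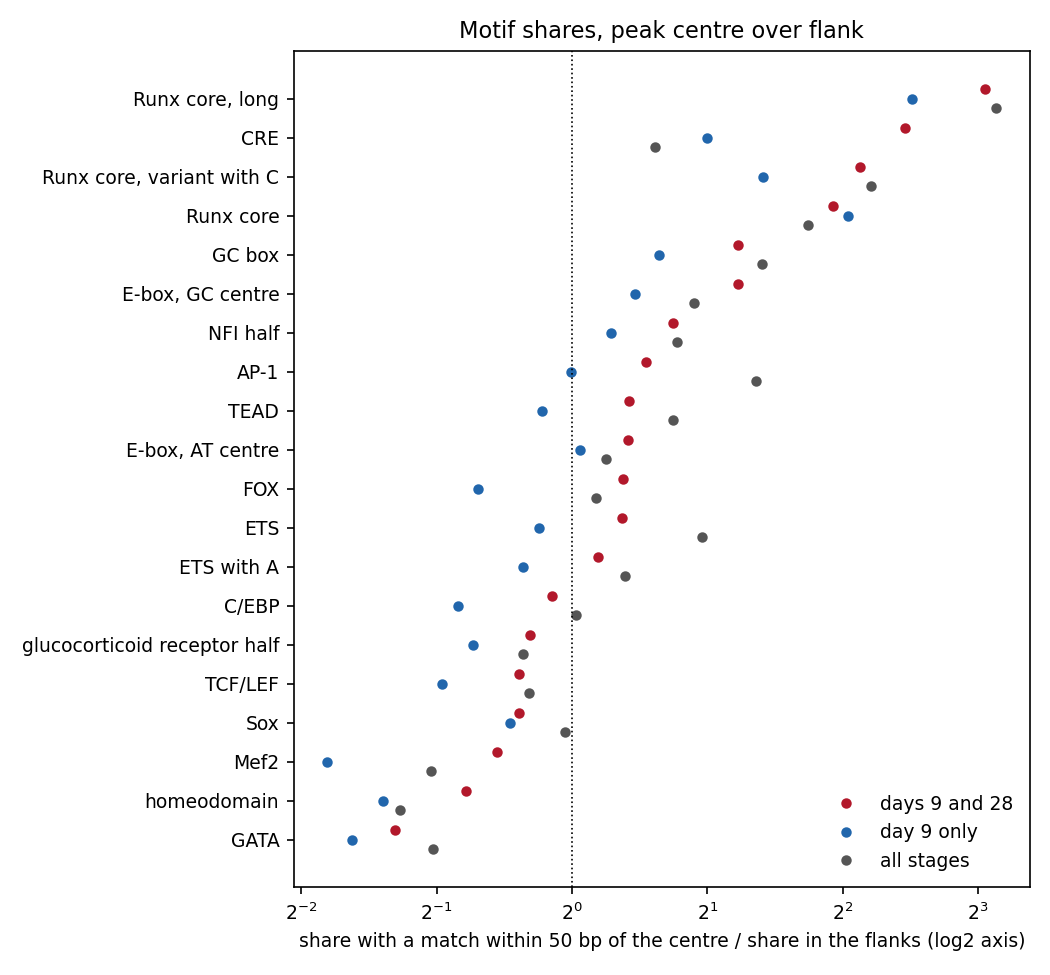
Share of regions with a motif within 50 bp of the day 9 peak centre divided by the share of flank windows with it (x axis, log2 scale) for 20 motifs (y axis) in the 3 groups of distal regions. The long Runx core stood highest for the late regions at 8.29 and the GATA motif lowest at 0.405, and the ratio of the E-box with GC at its centre was 2.34 for the late regions, 1.38 for day 9 only and 1.87 for all stages.

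Since day 9 strength differed between the groups, the shares were also read at like day 9 rank. The percentile of a score is its rank within the list of its own day. Between the 50th and 75th percentile of the day 9 list, 12.5% of 3610 late regions held CAGCTG (11.5 to 13.6), against 5.57% of 2783 day 9 only regions (4.75 to 6.49) and 9.52% of 2742 all-stage regions (8.45 to 10.7). In the same range AP-1 was present in 3.82%, 2.41% and 9.04%, and the Runx core in 29.8%, 39.5% and 24.8%, GT repeats included. Between the 75th and 100th percentile, CAGCTG was present in 12.3% of 2613 late regions, 3.31% of 302 day 9 only regions and 10.2% of 3737 all-stage regions. The order of the 3 groups for CAGCTG and AP-1 was the same in each range of 25 percentiles of the day 9 list. For the Runx core, GT repeats included, the order changed with rank. In the lowest range 28.2% of late regions held it (25.8 to 30.6), against 28.9% of all-stage regions (25.2 to 32.8) and 30.5% of day 9 only regions. The late share exceeded the all-stage share in every higher range. Between the 75th and 100th percentile the core was present in 36.1% of late, 52.6% of day 9 only and 25.8% of all-stage regions.

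The peaks of days 9 and 28 largely coincided in position. The centres of the top peaks of both days lay within 50 bp of each other in 5045 regions (49.9%) and within 200 bp in 9167 (90.6%). Single peaks on both days formed 9637 regions (95.3%). Region widths had a median of 719 bp, against 473 bp for day 9 only and 1054 bp for all-stage regions. These values, and the scores below, come from the peaks that chose the regions and are given as description.

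Late distal regions ranked higher in the day 9 list than in the day 28 list. The median percentile was 58.7 at day 9 and 37.1 at day 28, and 79.0% of regions had the higher percentile at day 9. The lists differ in length, so equal percentiles are not equal signals. Both percentiles were at least 50 in 2876 regions and at least 90 in 177. The score of the peak caller is a p-value on a negative log10 scale multiplied by 10. Its median was 355 at day 9 (lowest 100, highest 3230), and at day 28 its median was 226 (lowest 100, highest 3212). Regions near the threshold were a minority, since 903 (8.93%) had a score under 110 on at least 1 day.

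**Figure D3:**
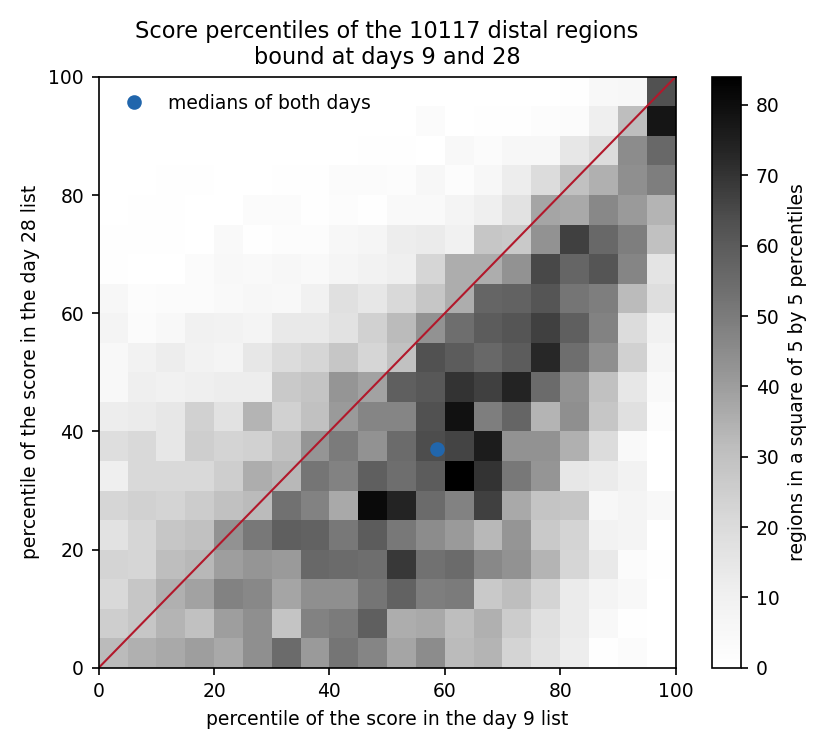
Percentile of each late distal region in the day 9 list (x axis) and in the day 28 list (y axis), with the number of regions in squares of 5 by 5 percentiles shown by shade. The red line marks equal percentiles, most regions lay below it, and the blue point marks the medians of 58.7 and 37.1.

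Members just inside and outside the bounds of the rule were as follows. The lowest day 28 score was 100, shared by a region near *Svop* and one at chr15:68778767-68779266 nearest to *Khdrbs3*, whose day 9 score was 472. The lowest day 9 score was 100.03, at chr15:80897417-80897873 nearest to *Mkl1*, with a day 28 score of 144. The region closest to a TSS lay 1002 bp from *Caskin2*, and a region of the same pattern 998 bp from *Slc36a2* was just outside. The farthest lay 99974 bp from *Gm5528*, and one 100071 bp from *Cga* was outside. A day 0 peak touched the region near *Nhej1* without sharing a base, and a day 0 peak lay within 1 kb of 742 regions (7.33%). On the other side of the rule, 294 of 8297 all-stage regions had a day 0 score under 110, and 1447 had one under 150.

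Introns held 5676 of the late distal regions (56.1%, 55.1 to 57.1), whereas introns made up 47.6% of the sequence eligible under the rule. First introns held 2494 (24.7%) against 17.5% of eligible sequence, a ratio of 1.41. Late regions stood 7.12 points above all-stage regions in the share within introns (5.67 to 8.57), while the difference from day 9 only regions was 0.208 points (-1.02 to 1.43). For first introns the late share was 4.06 points above day 9 only (3.02 to 5.10) and 1.10 points above all stages (-0.142 to 2.34). Intergenic positions upstream of the nearest TSS held 28.6% against 34.5% of eligible sequence, and intergenic positions downstream held 15.3% against 17.9%. The median distance to the TSS was 19800 bp. Between 1 and 5 kb from a TSS lay 15.2% of late regions against 12.4% of eligible sequence, and between 50 and 100 kb 19.1% against 24.8%. The Runx core was present at 30.9% of intronic and 30.6% of intergenic centres, and at 28.6% of centres 1 to 5 kb from a TSS and 32.9% of those beyond 50 kb.

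By nearest TSS, 5140 of 22359 protein-coding genes (23.0%) had at least 1 late distal region and 656 (2.93%) had 4 or more. The density over all eligible sequence (1483 Mb) was 6.82 per Mb, and it is the background for the gene lists below. The nearest gene is a convention and need not be the gene a region acts on. Density near each list is given per Mb of eligible sequence nearest to its genes, with exact Poisson 95% intervals that cover counting error only, and no list was tested against the rest. Of the list genes, 1 (*Cebpd*) had no protein-coding entry in the annotation and was left out.

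Genes for transcription factors of the osteoblast lineage had the highest density of the lists. Of the lists recomputed under other settings, mineralization genes stood higher with peaks of p-value 1e-50 or less, at 4.19 times all genes against 3.99. Of 19 such genes, 17 had a late distal region, and the 59 regions amounted to 26.0 per Mb (19.8 to 33.6), 3.81 times the value over all genes. Near the same genes distal regions of day 9 only were 2.86 times and all-stage regions 4.33 times as dense as near all genes. *Runx3*, a paralogue of *Runx2*, had 18 late regions, *Runx1* had 10, and *Cebpb* and *Foxo1*, which act in mesenchymal differentiation, had 4 each. *Runx2* had 1, in intron 3, 72868 bp downstream of the nearest TSS (chr17:44798484-44799063), at percentile 22.2 on day 9 and 28.7 on day 28. *Sp7*, the osterix gene required downstream of *Runx2*, also had 1, a region of 2224 bp 4766 bp upstream of its TSS (chr15:102200939-102203162). That region reached percentile 94.1 on day 9 and 87.3 on day 28, and the closest day 0 peak was 3786 bp away. *Dlx5*, a homeobox gene of bone, had 1 at percentiles 79.2 and 76.3.

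Of the 20 genes of mineralization and the mineralized matrix, 12 had a late distal region, with 32 regions in all (22.8 per Mb, 15.6 to 32.2, 3.34 times all genes), beside 1.81 times for day 9 only and 3.06 times for all stages. With equal numbers of top peaks the late ratio was 5.04. *Alpl*, which encodes the alkaline phosphatase that releases phosphate for mineral, had 7, of which 6 were in its introns, against 1 region of day 9 only and 2 of all stages. Its 7 regions lay between 2774 and 19228 bp from a TSS, with day 9 percentiles of 36.8 to 93.9 and day 28 percentiles of 22.3 to 85.3. The one whose lower percentile was highest was in the first intron (chr4:137348413-137350636), at percentiles 88.0 and 85.3, with the closest day 0 peak 8308 bp away. *Smpd3* had 4 regions, and *Phospho1*, a phosphatase of matrix vesicles, had 3 at 12007 to 34910 bp upstream. *Ibsp*, for bone sialoprotein, had 3, all upstream, the nearest 12407 bp from the TSS at percentiles 80.0 and 48.8. *Spp1*, for osteopontin, had 3 between 6601 and 9528 bp upstream, of which the highest was at percentiles 77.6 and 53.8. For the osteocalcin genes, *Bglap* had 2 and *Bglap2* had 1 at percentiles 89.3 and 78.5 (chr3:88179629-88181625). These genes are near-identical neighbours, and the lists do not show how reads were divided between the copies. *Dmp1* had none, and *Phex* had 1 in intron 3 at percentiles 20.8 and 18.4.

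Collagen and matrix assembly genes had 48 late regions near 18 of 30 genes (14.4 per Mb, 2.10 times all genes with an interval of 1.55 to 2.79), while the ratios were 1.86 for day 9 only and 3.85 for all stages. With peaks of p-value 1e-50 or less the late ratio was 3.65. *Col5a1* led with 11, of which 8 were in introns. *Loxl1*, a collagen cross-linking enzyme gene, had 5, and *Col6a1* and *Col1a1* had 4 each. The 4 regions of *Col1a1*, for the main collagen of bone, were all upstream, and the day 9 percentile of none exceeded 54.7. *Col1a2* had 2 late regions at day 9 percentiles up to 25.8, beside 8 all-stage regions. Matrix protease and inhibitor genes had 27 regions near 11 of 20 genes, 2.57 times all genes, beside 0.967 times for day 9 only and 2.79 times for all stages. *Timp3* had 6, *Adamts2* 4 and *Adamts5* 3. All 6 of *Timp3* lay in introns, and the highest of them was in intron 6 of *Syn3*, the gene within which *Timp3* lies. *Mmp13*, the collagenase of bone remodelling, had 2 at 29613 and 32858 bp upstream.

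Signalling genes also lay near many late distal regions. The 37 Wnt genes had 96 regions near 29 genes (20.4 per Mb, 16.5 to 24.9, 2.99 times all genes), beside 1.73 times for day 9 only and 2.09 times for all stages. *Ctnnb1*, for beta-catenin, and *Tcf7l2*, a nuclear partner of it, had 11 each, and *Fzd7* and the ligand gene *Wnt7b* had 8 each. *Fzd7* had no all-stage distal region, and its highest late region, 30933 bp upstream, had a score of 3100 on both days. *Wnt5a* had 1. FGF and IGF genes had 53 regions near 16 of 23 genes, 2.85 times all genes, beside 1.06 times for day 9 only and 1.90 times for all stages. The receptor genes *Fgfr2*, *Fgfr1* and *Fgfr3* had 7, 6 and 6, and *Igf2r* had 6. All 7 of *Fgfr2* were called intronic, in intron 2 of a transcript with 6 introns, and 4 of them lay upstream of the nearest TSS. The annotated span of this gene is very long (chr7:137305965-140315033), so these calls depend on the transcript models used. BMP and TGF-beta genes had 57 regions near 22 of 38 genes, 1.70 times all genes, beside 1.12 times for day 9 only and 2.47 times for all stages. *Smad3*, a TGF-beta effector, and *Smad6*, an inhibitory Smad, had 8 each, *Smad2* had 5 and *Ltbp1* 4, while the ligand gene *Bmp2* had 1 at 70250 bp upstream. Notch and Hedgehog genes had 33 near 13 of 21 genes, 2.33 times all genes, beside 1.90 and 2.06 times. *Gli2*, a Hedgehog effector, had 10 and no all-stage region, the receptor gene *Ptch1* had 5, *Notch2* 4 and *Gli3* 3. Receptor genes of hormones and vitamins had 38 near 9 of 16 genes, 2.60 times all genes, beside 1.47 times for day 9 only and 2.92 times for all stages. *Rxra* had 13, *Pth1r*, for the parathyroid hormone receptor, had 7 within 23994 bp, *Ppard* 6 and *Esr1* 4. *Vdr*, for the vitamin D receptor, had 3, one of which is the repeat-rich region shown above at percentiles 97.4 and 51.6.

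Osteoclast coupling genes had 13 late regions near 7 of 11 genes, 1.48 times all genes with an interval of 0.790 to 2.54, beside 1.09 and 2.23 times. *Sema4d* had 5, *Csf1* 2, and *Efnb2* 1. *Tnfsf11*, for Rankl, had 2 adjacent regions 21995 and 22699 bp upstream, and *Tnfrsf11b*, for its decoy receptor, had 1 in its first intron. Adhesion and cytoskeletal genes had 34 near 12 of 22 genes, 2.05 times all genes, beside 1.58 times for day 9 only and 2.50 times for all stages. They included 8 at *Itga11*, a collagen receptor gene, 5 at *Itgb3*, and 3 each at *Actn1* and *Itgb1*.

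Among the lists for other cell types and for housekeeping, the Poisson interval of the ratio included 1 for all but neuron genes. The interval for neuron genes lay below 1 and rests on 3 regions near 3 of 10 genes. These intervals do not cover the spread between genes, so they do not decide which lists differ from all genes. The ratios to all genes were 1.40 for cartilage (0.802 to 2.28), 1.30 for adipocyte (0.560 to 2.56), 1.45 for muscle (0.748 to 2.53), 0.841 for blood cell (0.174 to 2.46) and 0.316 for neuron genes (0.0652 to 0.924). Cell cycle genes stood at 1.62 (0.742 to 3.08) and cytosolic ribosomal protein genes at 1.28 (0.469 to 2.78). For day 9 only and all stages the ratios were 0.969 and 2.86 for cell cycle genes and 1.53 and 2.86 for ribosomal protein genes. They were 1.89 and 1.28 for cartilage, 1.45 and 0.989 for adipocyte and 1.01 and 1.77 for muscle genes. Blood cell genes stood at 1.68 and 0, and neuron genes at 1.20 and 0.771. In these lists the genes with most late regions were *Col11a2*, *Matn1* and *Sox9* with 4 each and *Col2a1* with 2 for cartilage, *Lep* with 4, *Cebpa* with 2 and *Fasn* and *Lpl* with 1 each for adipocyte, and *Mef2a* and *Mef2c* with 4 each, *Mef2d* with 2 and *Des* with 1 for muscle. *Cd4*, *Pax5* and *Spi1* had 1 each, as did *Gad1*, *Snap25* and *Tubb3*. *Ccnd1*, the cyclin D1 gene, had 4, *Cdk1* 2, *Cdt1* and *Mcm6* 1 each, *Rpl3* 3, and *Rpl11*, *Rpl5* and *Rps20* 1 each. The *Rpl11* region was at percentiles 97.4 and 99.8.

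Of 25 landmark genes of the lineage, several of which the study follows, 22 had a late distal region, with 55 regions in all (19.7 per Mb, 14.9 to 25.7). As these genes were partly chosen by the study on the same samples, their density is not independent evidence. The same limit holds for the lists above, which share genes such as *Alpl*, *Ibsp*, *Fgfr2* and *Col1a1* with this one. Those lists were also chosen with earlier results of these data known. Among the landmark genes not yet given were *Tnfrsf19*, a receptor gene of the TNF family, with 7, *Gja1*, for connexin 43, with 2, and *Adamts4* with 1. *Cdh11* and *Crabp2* had none.

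**Figure D4:**
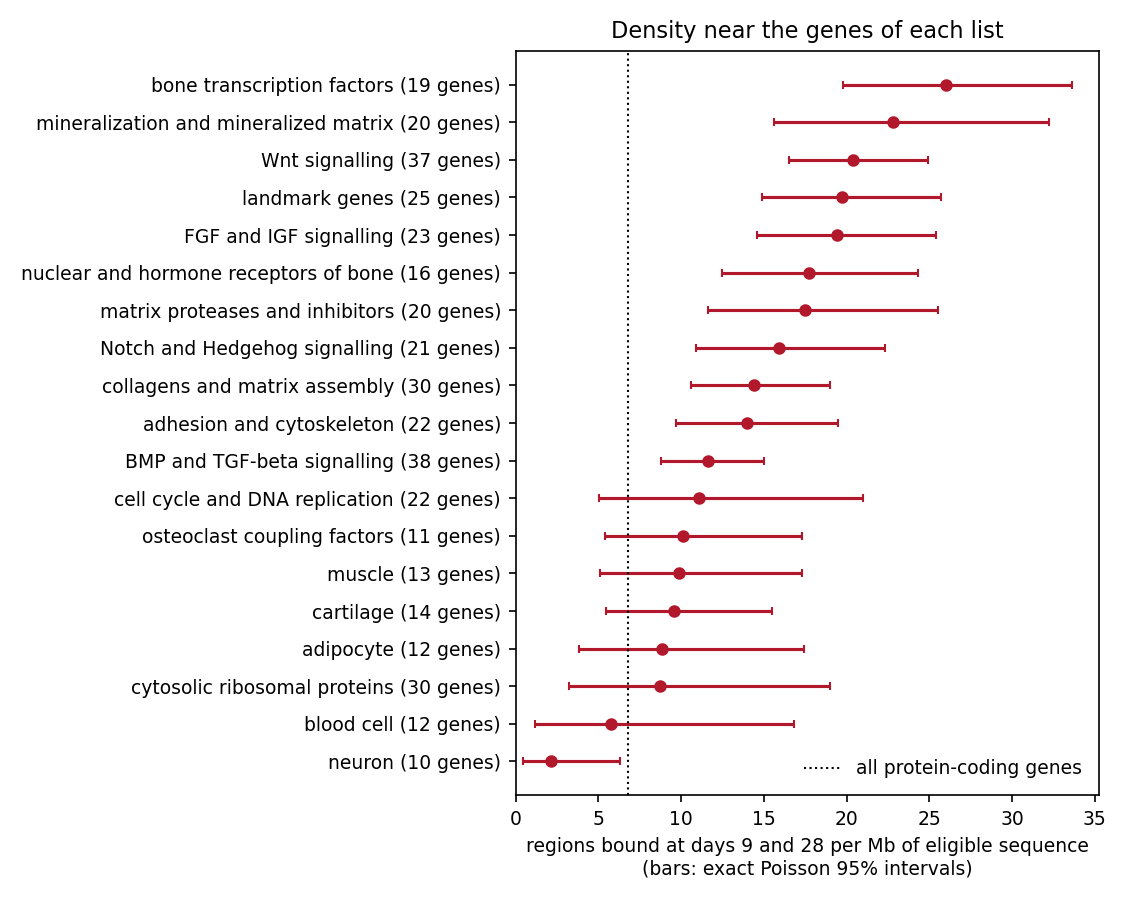
Late distal regions per Mb of eligible sequence (x axis) near the genes of each list (y axis), with exact Poisson 95% intervals, and the value over all protein-coding genes of 6.82 per Mb as a dotted line. Bone transcription factor genes stood highest at 26.0 per Mb and neuron genes lowest at 2.16 per Mb.

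Some genes had many late distal regions, which also depends on the eligible sequence nearest to them. *Tns1*, for the focal adhesion protein tensin 1, had 27, of which 20 were in introns, beside 9 of day 9 only and 3 of all stages. *Prex1*, for an activator of Rac, had 23 beside 11 and 3. *Runx3* followed with its 18, of which 12 were upstream, beside 19 and 7. Day 9 only regions also outnumbered the late ones at *Sept9* (14 late, 25 of day 9 only and 9 of all stages), *Zbtb7c* (14, 16 and 5) and *Rxra* (13, 14 and 12). The numbers were 16, 12 and 2 at *Sorcs2*, 15, 7 and 13 at *Zmiz1*, 13, 6 and 2 at *Bcas3*, and 12, 5 and 1 at *Gm4825*. The median percentiles of the *Tns1* regions were 73.5 at day 9 and 47.0 at day 28, and those of *Runx3* were 71.3 and 54.1. The *Runx3* region whose lower percentile was highest, 21867 bp upstream (chr4:134653242-134656158), had a score of 3100 at day 9 and 2625 at day 28, held 8 cores and lay 659 bp from a day 0 peak.

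**Figure D5:**
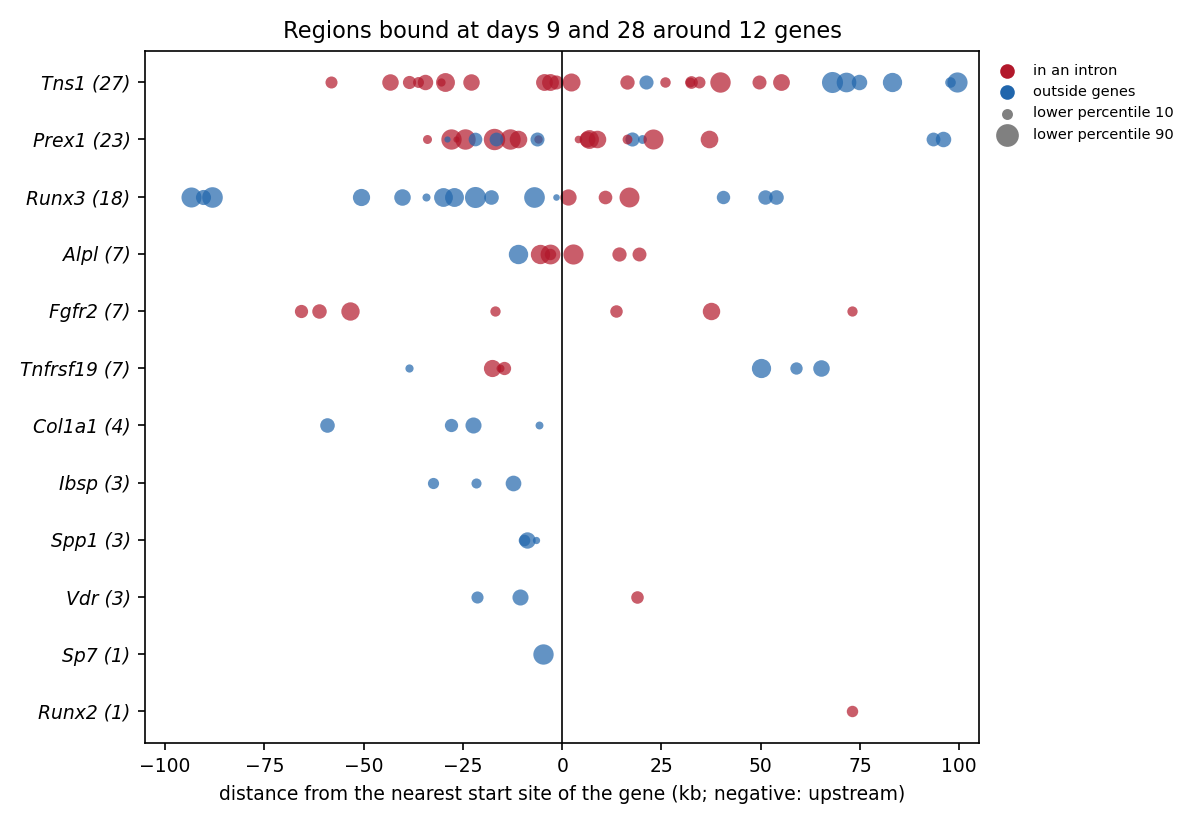
Position of the late distal regions of 12 named genes by distance in kb from the nearest TSS of the gene (x axis, negative is upstream), in introns (red) or outside genes (blue), with point size by the lower of the percentiles on both days. *Tns1*, *Prex1* and *Runx3* had regions on both sides of their start sites, whereas those of *Col1a1*, *Ibsp* and *Spp1* were all upstream. The red upstream points of *Fgfr2* rest on its very long annotated span.

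The score of the peak caller reached a ceiling at 3100 and above, which 359 late distal regions reached at day 9, 54 at day 28 and 47 on both days. The 10 named as the highest ranking were those of the 47 that came first by chromosome. They were nearest to *Aox3l1*, *Fzd7*, *Ngef*, *Sned1*, *Chst3*, *Bcr*, *S100b*, *Tcf7*, *Tnip1* and *Spns2*, and 9 of them were intronic. Among them, *Tcf7* is a nuclear effector of Wnt signals, *Chst3* modifies chondroitin sulphate chains, and *Spns2* exports sphingosine 1-phosphate. The *Tcf7* region of 3801 bp lay in intron 3 (chr11:52085136-52088936), 38552 bp from the closest day 0 peak.

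Genes with late distal regions were also bound at their start sites more often. A region bound at days 9 and 28 lay within 1 kb of a TSS, with none bound at all stages, in 100 of the 656 genes with 4 or more late distal regions (15.2%, 12.6 to 18.2), in 10.7% of the 4484 genes with 1 to 3 and in 5.79% of the 17219 genes with none. A region bound at all stages lay there in 58.8%, 53.0% and 38.0%. The eligible sequence nearest to a gene, which sets how many regions it can receive, had medians of 128, 72.2 and 33.1 kb in these groups, and its part in the difference was not tested. Late distal regions often had neighbours, since another lay within 10 kb of 3748 (37.0%), a share of 37.5% for day 9 only and 34.8% for all-stage regions, and an all-stage region of any position lay within 10 kb of 3516 (34.8%).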

How the data were processed

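Reads were mapped to mm9 by the authors with Bowtie (version 0.12.8), and the submitters' processing notes also name CASAVA (version 1.6). The authors combined 2 biological repeats of each stage, used MACS (version 1.4.1) with input DNA to find peaks, kept peaks with a p-value of 1e-10 or less, and deposited 1 peak list per day with the MACS score, which rises by 10 for each factor of 10 in the p-value. Scores depend on depth and were used only as ranks within a list. Peaks were merged, assigned to the nearest TSS (51710 protein-coding transcripts, GENCODE M1) and read in the NCBIM37 (mm9) sequence with Python (version 3.11.15), NumPy (version 2.4.6) and SciPy (version 1.17.1), and plotted with Matplotlib (version 3.10.9). Merging, motif search and intervals were tested on simulated data. Motif shares carry exact Clopper-Pearson 95% intervals, and differences of shares Newcombe 95% intervals. Named were up to 4 genes with most regions in each list, all landmark genes, the 10 genes with most regions of all, the 10 regions ranking highest on both days, the top region of each landmark gene and of the first gene of each list, and those at the bounds. The regions, lists and motifs were chosen with earlier results of these data known, and the limits for GT-rich cores after seeing the sequences. Input DNA was not analysed here. Some genes that the rule names are not reported here.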

Additional observations from a re-analysis of the deposited data

How the results depend on the processing

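Regions numbered 6367 and 3277 with peaks of p-value 1e-20 and 1e-50 or less, limits that also let weaker day 0 peaks count as absent, and 3563 with the 25457 top peaks of each list. The share with a Runx core was 28.6% and 26.8% at these p-values, 29.4% around region centres, 46.5% within 100 bp, 33.8% with TGCGGT, and 28.9% and 23.6% without cores in GT-rich sequence (limits of 20 and 16 of 24 bases). The share in introns was 54.1% at a p-value of 1e-50, 58.6% with top peaks, 54.4% beyond 5 kb from a TSS and 50.2% for whole regions inside 1 intron. Genes with a region were 17.0%, 10.4% and 10.8% at both p-values and with top peaks, 22.0% without day 0 peaks within 1 kb, 20.1% beyond 5 kb, and 28.1% with gene bodies within 20 kb. In settings added after seeing the data, the density near list genes over that of all genes ranged from 3.56 to 5.14 for bone transcription factors, 3.34 to 5.04 for mineralization, 2.21 to 3.16 for Wnt, 2.44 to 2.90 for FGF and IGF, 1.94 to 3.65 for collagen and 2.76 to 2.99 for landmark genes, and the share with CAGCTG was 14.2% with top peaks. No paired analysis was possible because each day has 1 pooled list and no result comes from a test, and replicates could not be left out. The lists give no reads per peak, so signal below the threshold at day 0 was not detectable in them.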

Other observations

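Late distal regions were unevenly spread over chromosomes. Their density ranged from 4.45 per Mb of eligible sequence on chromosome 3 to 11.7 on chromosome 11 (exact Poisson 95% interval 10.9 to 12.5) among the autosomes. On chromosome X it was 1.26 per Mb (112 regions, 1.03 to 1.51), beside 1.44 for distal regions of day 9 only and 0.796 for those of all stages.

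Of the 507 late regions with 2 Runx cores within 50 bp of the day 9 centre, 322 (63.5%) had both on the same strand, 91 had them facing each other and 94 back to back. Cores in GT-rich sequence are included in these counts. The widest late region spanned 20303 bp nearest to *Ezh2* (chr6:47616812-47637114), 81623 bp from its TSS, with scores of 3100 at day 9 and 866 at day 28.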
